A study of Mus musculus with 4 samples.

Results

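Sperm head shaping and the joining of head to tail were followed through 9 genes, all of which were present among the 22808 gene identifiers of the deposited RNA-seq table. They were chosen by name, as genes of SUN proteins, of the manchette, of cytoplasm shedding and of the head-tail junction: Sun1, Sun3, Sun5, Spag4, Hook1, Rimbp3, Spem1, Spert and Oaz3. The samples were mouse testes at postnatal day 23. The labels give 1 directional library of total RNA, depleted of ribosomal RNA, from Piwil1+/- and 1 from Piwil1-/- mice. Directional libraries keep the strand of the RNA. Piwil1 encodes a PIWI protein of male germ cells that carries PIWI-interacting RNAs, and the heterozygote served as the control. The labels do not say which Piwil1 allele was used, on which strain background, or how many animals entered a library. PIWIL1-bound small RNAs of adult C57BL/6J testes from the same series were not analysed here.

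After meiosis a round spermatid is rebuilt into a sperm cell. A skirt of microtubules called the manchette forms around the nucleus, is tied to the nuclear envelope by bridges of SUN and nesprin proteins (LINC complexes), and helps to draw the head into its hooked shape. At the pole of the nucleus that faces the tail, the head-tail coupling apparatus anchors the flagellum in a dent of the nuclear envelope. The surplus cytoplasm is shed last. In mice, mutations of several of these genes give misshapen heads, headless sperm or heads bent back in retained cytoplasm.

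Levels are RPKM, read numbers scaled by gene length and by library total, so that they can be compared between genes. Differences are log2 ratios, log2 (RPKM + 1) in Piwil1-/- minus the same in Piwil1+/-; for genes at low levels the added 1 shrinks the difference. A gene is called lower or higher at 2-fold on this scale. With 1 library per genotype there is no replicate check, no spread between animals and no test. The 95% counting intervals of plain RPKM ratios cover counting error only, and PCR copies make them too narrow. Most rest on the smallest read numbers that fit, and larger true numbers would make them narrower. The RPKM of Piwil1 itself was 26.2 in the Piwil1+/- library and was listed as 0 in the other, as the labels have it. The pair of whole library totals that best fits the RPKM values is 104014686 reads for Piwil1+/- and 100254357 for Piwil1-/-.

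In Piwil1-/- testis 3 of the 9 genes were lower by 2-fold or more, and no gene of the 9 was higher by as much. The 3 were Spem1, Spert and Oaz3, genes of cytoplasm shedding, of a spermatid vesicle and of the head-tail junction. The background is 9951 genes whose RPKM reached 1 in at least 1 library: 195 of them (1.96%) passed 2-fold on the lower side and 23 (0.231%) on the higher side. At a line of 1.5-fold 5 of the 9 genes were lower, with Sun3 and Spag4 added, against 5.21% of the background, and none was higher, against 1.42%. The median log2 ratio of the 9 genes was -0.63, against 0.0055 over all genes compared, and 8 of the 9 lay below 0, against 48.8% of all genes. The SUN and manchette genes all lay within 2-fold, and Sun1 and Rimbp3 were at nearly the same level in both libraries. The 9 genes were proposed with results of these libraries known, so their count and median are descriptions.

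**Figure D1:**
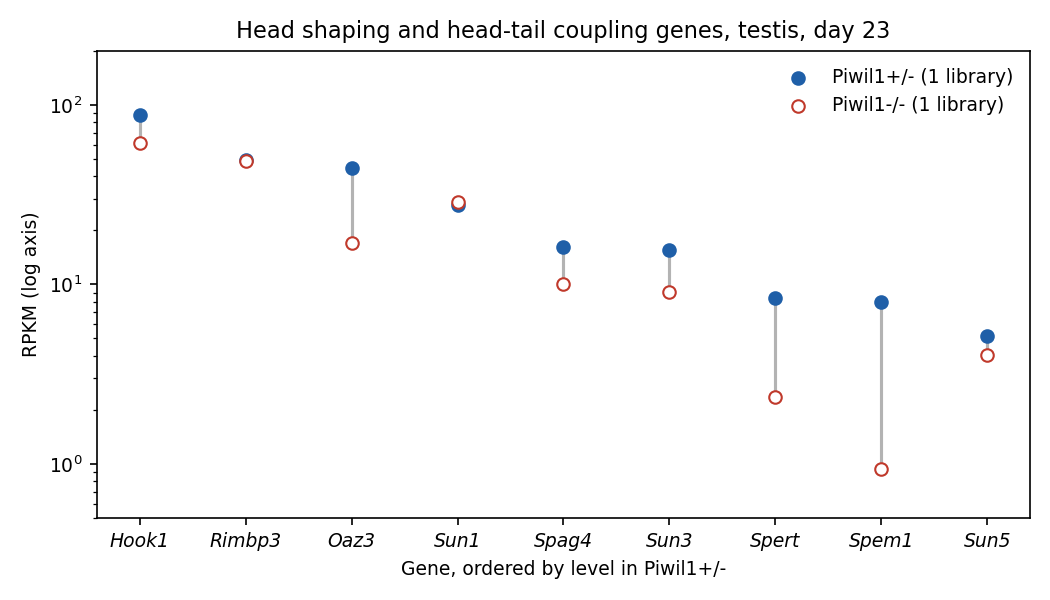
RPKM of each of the 9 genes on a log axis, ordered by level in Piwil1+/-; filled points are the Piwil1+/- library, open points the Piwil1-/- library, and a grey line joins the values of a gene. The widest gap is that of Spem1, from 7.92 to 0.930 RPKM, and the points of Rimbp3 and of Sun1 lie almost on each other.

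In the Piwil1+/- library the order of levels was Hook1, Rimbp3, Oaz3, Sun1, Spag4, Sun3, Spert, Spem1 and Sun5, from 87.4 RPKM down to 5.17 RPKM. Spag4 and Sun3, at 16.1 and 15.5 RPKM, and Spert and Spem1, at 8.43 and 7.92 RPKM, were close neighbours, and no replicate spread is at hand to separate any neighbours in this order. The median gene compared was at 6.54 RPKM, so that Sun5 was the one member below it. In the Piwil1-/- library Oaz3 stood below Sun1, and Spert and Spem1 stood below Sun5. The summed level of the 9 genes was 261.7 RPKM in Piwil1+/- and 181.6 RPKM in Piwil1-/-.

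The bases before the annotated gene are shown for 4 of the genes, because these genes cover the range of ratios. They are Spem1 and Spert, whose RNA was far lower in Piwil1-/- testis, Spag4, which was moderately lower, and Sun1, which was not. The full cAMP response element, TGACGTCA, to which the spermatid activator CREM binds, and its minimal part, TGACG, were searched on both strands. The minimal part lies inside the full element, so every full match also counts as a minimal one. Matches within the printed bases are in capitals. The sequences are from RefSeq, GRCm38.p6 (the assembly of build mm10), and each gives the 120 bases just outside the annotated gene, 5′ to 3′ on the gene's strand. Spem1 is chr11:69822166-69822285 on the minus strand, Spert chr14:75593178-75593297 on the minus strand, Spag4 chr2:156065068-156065187 on the plus strand and Sun1 chr5:139200444-139200563 on the plus strand.
Spem1: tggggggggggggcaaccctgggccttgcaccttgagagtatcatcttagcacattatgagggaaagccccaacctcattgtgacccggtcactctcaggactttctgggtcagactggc
Spert: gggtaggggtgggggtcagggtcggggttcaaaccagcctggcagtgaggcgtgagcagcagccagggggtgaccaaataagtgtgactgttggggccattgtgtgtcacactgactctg
Spag4: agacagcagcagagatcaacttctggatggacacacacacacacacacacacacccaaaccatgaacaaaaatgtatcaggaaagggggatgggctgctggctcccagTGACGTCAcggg
Sun1: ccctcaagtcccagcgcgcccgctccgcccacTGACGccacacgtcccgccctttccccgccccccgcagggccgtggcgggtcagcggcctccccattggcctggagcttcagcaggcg

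RefSeq promoter windows of 300 bases, 250 before and 50 after a start, were at hand for 7 of the 9 genes, in 10 windows; Rimbp3 and Oaz3 had none. The full element was found in 1 of these windows, that of Spag4, where it runs from -37 to -30 of the start (the first transcribed base is 0). Of all 32851 windows in the table, 1.79% held it. The minimal part was found in windows of 2 genes, Spag4 and Sun1, and in 20.8% of all windows. The starts used for the Spag4 and Sun1 windows lie inside the annotated genes, so positions do not count from the end of the printed bases. Beyond those bases lie the Sun1 match from -63 to -59 and the Spag4 matches from -18 to -14 and from -2 to 2. The windows of Spem1, Spert, Sun3, Sun5 and Hook1 held neither set of letters. A match is a description of the sequence, and a window without one says nothing about the binding of a factor.

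Spem1 had the lowest ratio of the 9 genes. Its protein is needed for the late spermatid to strip off its cytoplasm; without it heads stay bent back in the retained droplet. Spem1 (chromosome 11, 69820871 to 69822165, mm10) had a level of 7.92 RPKM in the Piwil1+/- library and of 0.930 RPKM in the Piwil1-/- library. The log2 ratio of -2.21 was the 6th lowest of 9951 genes, Piwil1 included. As a plain ratio Spem1 was 8.52-fold lower (interval 6.82 to 10.8), from at least 769 and 87 reads. In Piwil1+/- 55.3% of the genes compared were below it. In Piwil1-/- 2.78% were, but the filter keeps this share low, since genes below 1 RPKM in both libraries are left out.

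Spert, also named Cby2 or Nurit, encodes a Chibby-family protein of flattened vesicles in elongating spermatids. Spert (chromosome 14, 75582834 to 75593177) had levels of 8.43 RPKM in Piwil1+/- and 2.34 RPKM in Piwil1-/-, a log2 ratio of -1.50 and the 63rd lowest. It was 3.60-fold lower as a plain ratio (3.16 to 4.11), from at least 1083 and 290 reads. Its relative Cby1, a centriolar protein of ciliated cells, was at 2.20 and 1.74 RPKM, a ratio of 0.790 with an interval of 0.566 to 1.10. The intervals of Spert and Cby1 do not overlap.

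Oaz3 encodes the antizyme of haploid germ cells, a regulator of polyamine synthesis, and sperm of mice without it lose their heads from their tails. Oaz3 (chromosome 3, 94433387 to 94436651) had levels of 44.3 RPKM in Piwil1+/- and 16.9 RPKM in Piwil1-/-. Its log2 ratio was -1.34, the 95th lowest, and its plain fold was 2.62 lower (2.42 to 2.84), from at least 2289 and 841 reads. Of the 3 genes past 2-fold it was by level the highest. The annotated span of Oaz3 shares 1468 bp with Tdrkh, a tudor domain gene of the piRNA pathway. Tdrkh was at 10.6 and 10.9 RPKM, and reads in the shared stretch cannot be assigned from RPKM values.

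The broadly expressed antizymes were level: Oaz1 was at 10.5 and 10.7 RPKM (ratio 1.01, interval 0.899 to 1.14) and Oaz2 at 9.21 and 9.79 RPKM (ratio 1.06, 0.932 to 1.21). Both intervals lie above that of Oaz3, 0.352 to 0.413. Of 11 antizyme and polyamine genes other than Oaz3, 9 were compared and none was past 2-fold; their median log2 ratio was -0.01. Odc1, the ornithine decarboxylase that antizymes inhibit, was at 95.4 and 94.7 RPKM. The lowest of the list was Azin2, an antizyme inhibitor of spermatids, at 1.28 and 0.531 RPKM (log2 ratio -0.58), and the highest log2 ratio was that of Sms, spermine synthase, at 0.16.

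**Figure D2:**
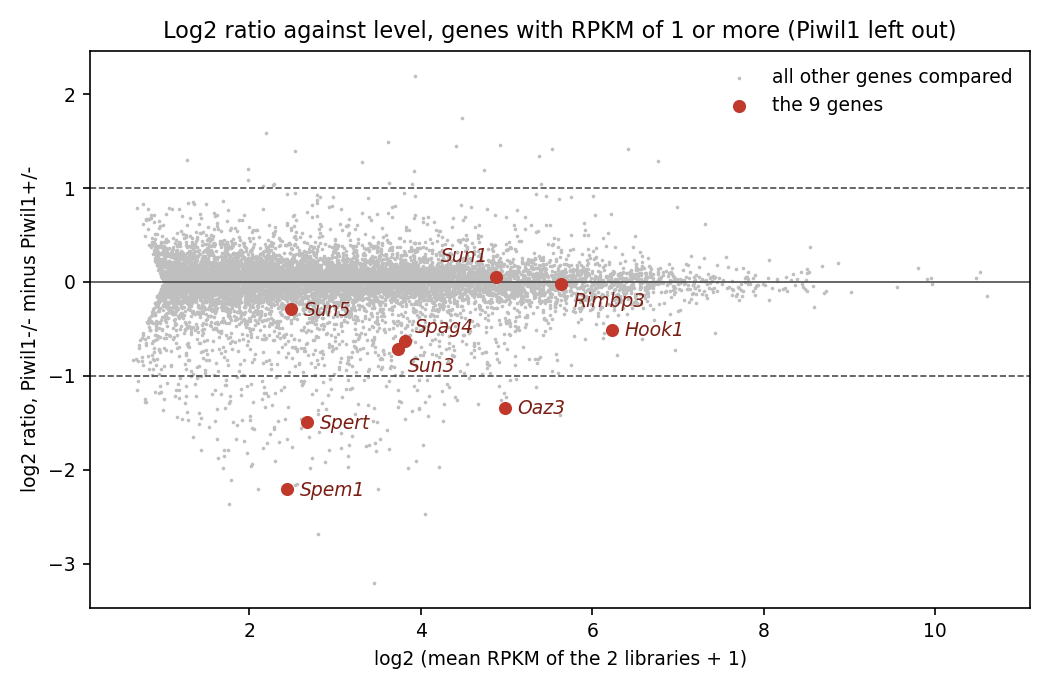
Log2 ratio of each gene compared, Piwil1-/- minus Piwil1+/-, against log2 of its mean RPKM plus 1; grey points are all other genes apart from Piwil1, red points the 9 genes, and dashed lines mark 2-fold. Spem1, Spert and Oaz3 lie below the lower dashed line, and Rimbp3 and Sun1 lie on the dense band around 0.

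The 4 SUN genes did not share 1 ratio. Sun1 (chromosome 5, 139200564 to 139249839), whose protein ties telomeres to the nuclear envelope in meiosis, had levels of 27.7 RPKM in Piwil1+/- and 28.8 RPKM in Piwil1-/-. Its ratio of 1.04 had an interval of 0.990 to 1.09, from at least 3427 and 3431 reads. The widely expressed relative Sun2 was also level, at 3.42 and 3.70 RPKM (ratio 1.08, 0.852 to 1.38). The SUN genes known mainly from testis were all lower in Piwil1-/-, each by less than 2-fold.

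Sun3 (chromosome 11, 9016043 to 9048991) encodes a SUN protein found where the manchette meets the nuclear envelope. It was at 15.5 RPKM in Piwil1+/- and 9.04 RPKM in Piwil1-/-, a log2 ratio of -0.71 and a plain fold of 1.71 lower (1.57 to 1.87), from at least 1404 and 791 reads. Its annotated span shares 400 bp with Gm11992, which was at 15.5 and 12.5 RPKM, and reads there cannot be assigned from RPKM values. Spag4, also named Sun4 (chromosome 2, 156065188 to 156069501), is needed for the manchette to be attached in order. It was at 16.1 and 10.01 RPKM, with a log2 ratio of -0.63 and a plain fold of 1.61 lower (1.45 to 1.78), from at least 972 and 583 reads. The intervals of Sun3 and Spag4 overlap.

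Sun5 (chromosome 2, 153856188 to 153871365) sits in the nuclear envelope at the implantation site of the tail and fixes the coupling apparatus to the head. It was at 5.17 RPKM in Piwil1+/- and 4.04 RPKM in Piwil1-/-. Its log2 ratio of -0.29 was the smallest decrease of these 3 SUN genes, with a plain fold of 1.28 lower (1.13 to 1.45) from at least 563 and 424 reads. The interval does not overlap those of Sun3 and Sun1, and it shares a narrow range with that of Spag4 (0.687 to 0.888 for Sun5 and 0.561 to 0.690 for Spag4, as ratios). Larger true read numbers would narrow both intervals, so this shared range is not firm.

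Among the manchette genes, Hook1 encodes a linker that holds the manchette in place and is the gene mutated in the abnormal-spermatozoon-head mouse. Hook1 (chromosome 4, 95967181 to 96025412) had levels of 87.4 RPKM in Piwil1+/- and 61.2 RPKM in Piwil1-/-, the highest of the 9 genes in both libraries. Its log2 ratio was -0.51. Its RPKM values did not fix read numbers; 1000 bases of the gene would hold 9091 and 6133 reads, which give a plain fold of 1.43 lower with an interval of 1.38 to 1.48. Its start shares 475 bp with the noncoding gene 9530080O11Rik, for which no value was found by symbol. The relatives Hook2 (2.84 and 2.97 RPKM) and Hook3 (10.3 and 10.4 RPKM) were level, with ratios of 1.04 (0.887 to 1.23) and 1.01 (0.924 to 1.10).

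Rimbp3 encodes a manchette protein that binds HOOK1 and is needed for a normal head. Rimbp3 (chromosome 16, 17208135 to 17213982) had levels of 49.2 RPKM in Piwil1+/- and 48.4 RPKM in Piwil1-/-, a log2 ratio of -0.02. On 1000 bases, with 5118 and 4848 reads, the plain ratio of 0.983 has an interval of 0.945 to 1.02. The intervals of Hook1 (0.678 to 0.723 as a ratio) and its binding partner Rimbp3 do not overlap. Of the 9 intervals, those of Sun1 and Rimbp3 hold a ratio of 1. The share of all genes whose interval excludes 1 was not computed, so the other intervals are not counted as changes.

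**Figure D3:**
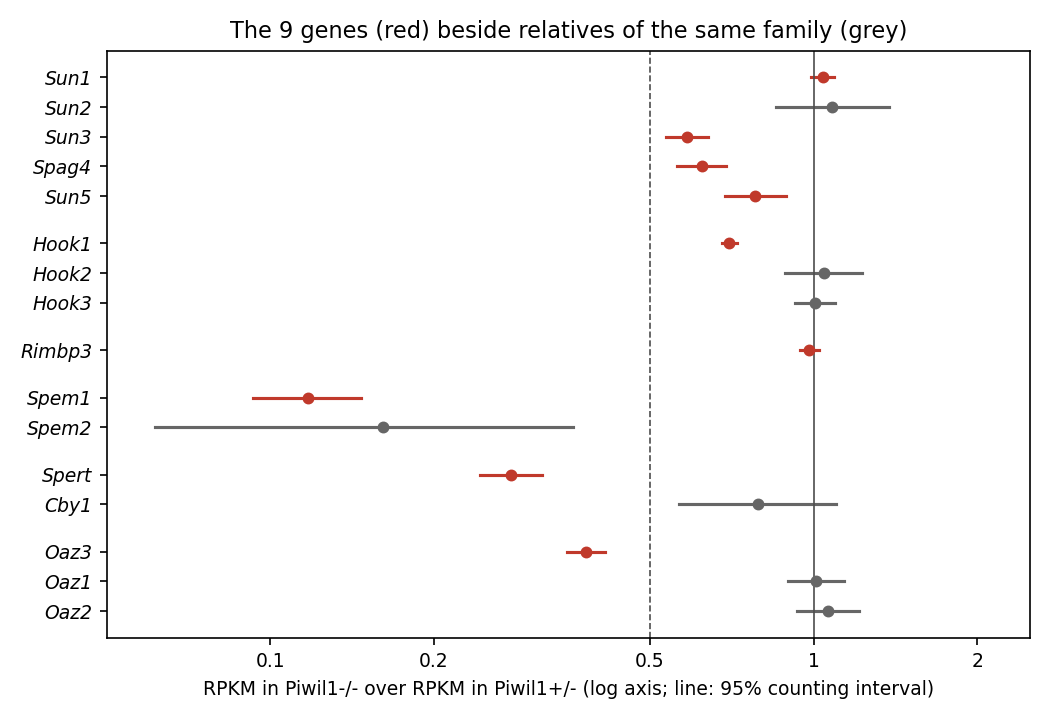
Plain RPKM ratio, Piwil1-/- over Piwil1+/-, on a log axis, for the 9 genes (red) and relatives of the same families (grey); points are ratios, lines are 95% counting intervals, the dashed line marks 0.5 and the solid line 1. Sun2, Hook2, Hook3, Oaz1 and Oaz2 lie at ratios of 1.01 to 1.08, to the right of their relatives Sun3, Spag4, Sun5, Hook1 and Oaz3. Sun1, at 1.04, is as level as Sun2. Cby1, at 0.790, lies to the right of Spert, while Spem2 lies near Spem1.

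Spem2 was the relative that shared the low ratio. Spem2 lies 2383 bp from Spem1 on chromosome 11 and was at 2.86 RPKM in Piwil1+/- and 0.462 RPKM in Piwil1-/-, a log2 ratio of -1.40. Its plain ratio of 0.161 has a wide interval, 0.0614 to 0.361, from at least 45 and 7 reads. These are the smallest numbers that fit, and larger true numbers would make the interval narrower. On the other side of Spem1, at 957 bp, Nlgn2 was at 0.124 and 0.113 RPKM, too low to be compared. Beside the other members, no flanking gene that reached 1 RPKM was past 2-fold: the lowest was Fggy beside Hook1 (log2 ratio -0.39) and the highest Efcab8 beside Sun5 (0.33).

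Other genes of cytoplasm shedding were split. Of 10 listed, 8 were compared, and 2 were lower by 2-fold or more, against 1.96% of all genes compared. None was higher, and the median log2 ratio was -0.38. Besides Spem2, Txndc2, a thioredoxin of the sperm tail, was at 22.02 and 4.82 RPKM (log2 ratio -1.98). Capza3, at 36.2 and 18.0 RPKM, was 2.01-fold lower as a plain ratio but just short of the line on the log2 scale (-0.97). Txndc8 was at 29.1 and 18.0 RPKM (-0.67). Ube2b and Herc4 differed little, with log2 ratios of 0.06 and -0.08. The partners known to bind SPEM1 were level: Ubqln1, a ubiquilin, was at 18.5 and 18.4 RPKM, and Ranbp17, an importin relative and the highest of the list, at 65.5 and 69.1 RPKM (log2 ratio 0.08).

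Other genes of the head-tail junction and sperm neck had a median log2 ratio of -0.23 over 17 of 18 listed genes. At least 2-fold lower were 2 of them, against 1.96% of all genes compared, and none was higher. Odf1, an outer dense fibre protein that also binds in the coupling apparatus, was at 22.5 RPKM in Piwil1+/- and 8.69 RPKM in Piwil1-/- (log2 ratio -1.28). Ccdc159, a coiled-coil gene, was at 4.81 and 1.39 RPKM (-1.28). The highest was Ccdc42, of the manchette and connecting piece, at 0.30. Pmfbp1 and Spata6, whose proteins act with SUN5 at the junction, were named after their values were seen. Pmfbp1 was at 34.7 and 17.9 RPKM (log2 ratio -0.92) and Spata6 at 142.8 and 115.7 RPKM (-0.30).

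Other manchette genes were mostly level. Of 28 listed, 26 were compared, and the median log2 ratio was -0.03. At least 2-fold lower was 1 gene, against 1.96% of all genes compared, and none was higher. A count of 1 in a list of this size is no result about the list. The lower gene was Ropn1, ropporin, a protein of the tail's fibrous sheath, at 40.1 and 18.1 RPKM (log2 ratio -1.11). The highest ratio was that of Ift20, of intraflagellar transport, at 0.28. Genes of LINC partners and the lamina had a median of 0.01 over 10 of 13 listed. There Tor1aip1, a lamina-associated protein of the inner nuclear membrane, was at 43.8 and 18.1 RPKM (log2 ratio -1.23). It was the 1 gene at least 2-fold lower, against 1.96% of all genes compared. The other 9 lay within 2-fold, up to Lmnb2, a B-type lamin, at 0.37.

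**Figure D4:**
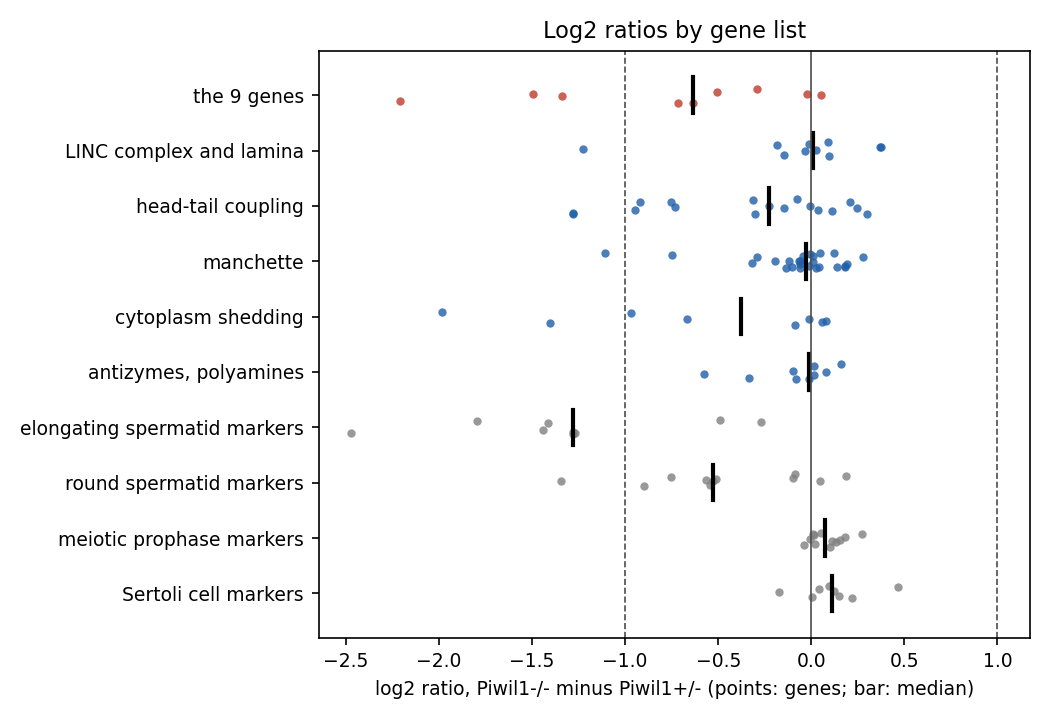
Log2 ratios of single genes (points) in the 9 genes (red), in lists of related genes (blue) and in cell type markers (grey); black bars are medians and dashed lines mark 2-fold. The 9 genes spread from -2.21 to 0.05 with a median of -0.63, between the medians of elongating spermatid markers (-1.28) and meiotic prophase markers (0.08).

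Markers of germ cell stages differed between the libraries as well. Of 12 elongating spermatid markers 9 were compared. The median log2 ratio was -1.28, with a summed level of 567.8 RPKM in Piwil1+/- and 394.7 in Piwil1-/-. In Piwil1-/- 7 were at least 2-fold lower, against 1.96% of all genes compared. They were Prm2, Tnp2, Akap4, Odf1, Gapdhs, Cabs1 and Fscn3, and Odf1 is also in the head-tail list. Of the protamine and transition protein genes, Prm1, Prm2 and Tnp1 were at 0.0616, 1.42 and 0.458 RPKM in Piwil1+/- and were listed at 0 in Piwil1-/-. Tnp2, at 2.25 and 0.197 RPKM, and Prm3, at 0.754 and 0.261 RPKM, were still detected there. Prm1, Prm3 and Tnp1 reached 1 RPKM in neither library and were not compared. Of 11 round spermatid markers 1, Tssk2, was at least 2-fold lower, against the same 1.96%. The median was -0.53 and the sums were 359.2 and 291.9 RPKM. None of 12 meiotic prophase markers was past 2-fold (median 0.08, sums 1056 and 1129 RPKM). The part of these stage differences in the ratios of the 9 genes was not tested. In whole testis RNA, fewer cells of a type and less RNA per cell cannot be told apart.

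Markers of the testis's somatic cells were present and mostly level. Sertoli cell markers had sums of 182.3 and 191.4 RPKM, of which Clu alone gave 132.6 and 133.0 RPKM. Sox9, at 0.0315 and 0.0327 RPKM, and Amh, at 0.0404 and 0.0899 RPKM, were very low. Leydig cell markers had sums of 161.4 and 137.6 RPKM, mostly from Cyp11a1 (59.8 and 48.1 RPKM) and Cyp17a1 (63.0 and 50.8 RPKM). Insl3 was at 0 and 0.0541 RPKM, and Cyp11b1 was listed at 0 in both libraries. Peritubular and smooth muscle markers summed to 52.0 and 39.9 RPKM. Of 5 compared 1, Actg2, was at least 2-fold lower, against 1.96% of all genes compared. Actg2 was at 17.6 and 3.04 RPKM, and the other markers compared had log2 ratios from -0.11 (Cnn1) to 0.14 (Acta2). Leukocyte and endothelial markers summed to 7.83 and 7.89 RPKM and spermatogonial markers to 16.2 and 16.3 RPKM. Of 8 epididymis markers, Crisp1, Defb20, Lcn5, Lcn8, Adam7 and Spink8 were at 0 in both libraries, while Cst8, at 12.9 and 2.86 RPKM, was lower and Rnase10 was at 1.83 and 1.01 RPKM.

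The genes nearest to Spem1 in the level of both libraries were Fam71a (8.43 and 1.11 RPKM), Wdr64 (8.62 and 1.16 RPKM) and Lrrc69 (6.78 and 1.07 RPKM), at distances of 0.149, 0.196 and 0.223 in log2 (RPKM + 1). Nearest to Sun1, which had the highest ratio of the 9 genes, were Slc7a6, Wdr11 and Osbpl9, at distances of 0.0167, 0.0173 and 0.0200. This likeness rests on 2 libraries.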

How the data were processed

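The authors deposited RPKM values of 22808 Ensembl genes, per the file headers, for 1 library of each genotype. Bowtie, STAR and build mm10 are named in the submitters' processing notes; how reads were counted, on which annotation and with or without strand is not stated there. Symbols matched 22444 identifiers, ignoring version suffixes. Log2 ratios used a pseudocount of 1 RPKM over genes that reached an RPKM of 1 in at least 1 library, and no p-value was computed.

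Whole reads were recovered as the simplest fraction that fits both RPKM values of a gene within the rounding of their last digit plus a relative 1.5e-09, for 15786 of 16558 genes above 0 in both libraries (95.3%) and 7 of the 9 genes; a common factor is lost, hence "at least". The totals are the pair of whole numbers that gave the most whole gene lengths among pairs that keep Spem1 within its annotated span. Of the 400 lengths checked, 49.3% lay within 2e-05 bases, or 8e-09 of the length if larger, of a whole number, so the totals are an estimate of depth; the ratios do not use them, apart from the intervals of Hook1 and Rimbp3. Intervals are exact binomial (Clopper-Pearson). The steps were tested on simulated data, with Python 3.11.15 and scipy 1.17.1.

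The 9 genes and all lists were chosen with earlier results of these data known. Named are the 9 genes, Piwil1, genes past 2-fold and the lowest and highest of each list of related genes. Markers past 2-fold or at 0 in both libraries are also named. So are the 3 nearest genes to the members with the lowest and highest ratio. Other genes were named after their values were seen, as relatives, partners, neighbours or further genes of the lists and marker sets. Alternatives changed the pseudocount, filter, scaling and threshold. The small RNA counts were not used.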

Additional observations from a re-analysis of the deposited data

How the results depend on the processing

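Of 136 values recomputed under alternatives, 122 stayed within their counting interval (for a list's median, within the medians of its genes' lower and upper limits) or, for counts, within 1.5 times, and no ratio past 2-fold changed sign. The medians of 2 lists near 0 did change sign: that of LINC partners and the lamina from 0.0080 to -0.011 with no filter and -0.089 with a mean RPKM of 5 or more, and that of antizyme and polyamine genes from -0.011 to 0.013 with the latter. With a pseudocount of 0.1 RPKM the log2 ratio was -2.96 for Spem1 and -1.80 for Spert, and without one, from recovered reads, -3.09 and -1.85; the head-tail list's median became -0.30, and 1 antizyme and polyamine gene was 2-fold lower. At 1.5-fold, 5 of the 9 genes, 6 head-tail, 2 manchette and 4 cytoplasm shedding genes were lower, against 5.21% of all genes. With a mean RPKM of 5 or more, 1 head-tail and 1 cytoplasm shedding gene were 2-fold lower. Of the 9 genes Spem1 and Sun5 were then not compared, and 2, Spert and Oaz3, remained lower. The cytoplasm shedding median was then -0.085, since Spem2 leaves the list, and it was also -0.085 with no filter, where Alox15 enters it. Over all genes, 332 were lower and 68 higher with the smaller pseudocount, 94 and 15 with a mean of 5 or more, and 518 and 141 at 1.5-fold. Centring on the median or trimmed mean of all genes, 0.0055 and 0.0050, changed no call among the 9 genes. No paired analysis was possible because each genotype has 1 library. The search of small RNAs against these genes was not run. The wide interval of Spem2 comes from the smallest read numbers that fit, not from a known depth, and the lack of replicates limits every ratio.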
